A study of Mus musculus with 7 samples.

Results

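Retained-intron transcripts are transcript models that the GENCODE M21 annotation of the mouse genome sets apart because they keep, relative to the other transcripts of the gene, sequence that is otherwise spliced out. Every transcript in the deposited transcript tables with that annotated type was taken, without regard to its level. This gave 16600 of the 69648 transcripts that could be joined to the annotation, and 16347 of them belong to protein-coding genes. At least 1 unique molecular identifier (UMI, a barcode that counts a captured molecule once) was found in a kept cell for 14920 of them, in 7471 genes, and 11446 were found in both libraries. For comparison, 34434 transcripts in the tables were annotated as protein-coding and 3620 as targets of nonsense-mediated decay.

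The data come from single cells of pancreatic islets of female C57BL/6 mice aged 10 weeks, with no genetic change or treatment named. Of 7 labelled samples in 4 groups, the 2 libraries of a modified 5' droplet assay had tables here, and they are called replicate 1 and replicate 2. In that assay dNTP was added to a pair of reactions, an extension ran for 2 h in place of 45 min and a later extension for 3 min in place of 1 min, insulin cDNA was removed with Cas9, and the cDNA was read on a Nanopore instrument. The labels do not state whether the libraries stem from separate animals. Each SD measures the spread between these libraries, which may be technical. The p-values rest on the scatter that remains among the sums per library and type once type and library are fitted, which may be technical too. Exact binomial intervals cover counting error only. Both libraries were made from polyadenylated RNA of whole dissociated cells, and the labels name no step that separates nucleus from cytoplasm.

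Introns are normally removed by the spliceosome while the transcript is still in the nucleus. A polyadenylated transcript that keeps an intron can be held in the nucleus until it is spliced (a detained intron), can be exported and degraded through nonsense-mediated decay when the intron brings a premature stop codon, or can be a stable RNA of its own. Genes of splicing regulators, and the kinases of the Clk family that phosphorylate them, are textbook cases in which intron retention sets the amount of messenger RNA. A transcript model of this class can also simply start or stop inside an intron, so that it ends in intron sequence without crossing the whole intron.

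Replicate 1 held 4814 kept cells with a median of 1831.5 transcript UMIs, and replicate 2 held 1093 kept cells with a median of 8834. The libraries shared 5 cell barcodes. Marker genes were highest in the type named after them, and 3 departures touch the results below. The delta class held beta marker genes at 51168 CPM (UMIs scaled to equal totals) in replicate 1 and 44697 in replicate 2. In replicate 2, 16 of the 26 cells named endothelial belonged to a cluster with duct markers at 19635 CPM and endothelial markers at 3. Endothelial cells of replicate 1 carried erythroid markers at 8704 CPM, against 0 CPM in replicate 2. The part of these cells in any result was not tested except where values without them are given.

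The models of this class were short. Their median length was 1256.5 bases and their median exon number 3, against 2242.5 bases and 7 exons for the protein-coding transcripts in the tables. Only 33.5% of the detected models held at least 1 whole intron of another kind of transcript of the gene, and these carried 38.6% of the retained-intron UMIs in replicate 1 and 40.3% in replicate 2. The other 66.5% began or ended inside an intron or differed in some other way, and they carried the remaining 61.4% and 59.7%. Most UMIs of the class therefore lay on models with no complete intron inside them.

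The models more often shared the start of another transcript than its end. The 5' end lay within 100 bases of that of another transcript type of the gene for models with 62.2% of the retained-intron UMIs in replicate 1 and 61.3% in replicate 2. The 3' end did so for only 17.2% and 19.1%, and both ends for 10.1% and 11.2%. Models with 1 exon were 13.5% of the detected members but held 25.6% and 24.6% of the UMIs. Some base of the model lay over an exon of a gene on the opposite strand for 14.5% and 14.9% of the UMIs. Whether counting used strand was not stated, so reads of such pairs cannot be told apart.

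The 7193 distinct introns that lay whole inside a detected member were short, with a median of 274 bases against 1518.5 bases for the 113806 other introns of protein-coding transcripts of the same genes. The sets were built differently. In the first, introns of all other transcript types entered, and an intron that contained another was dropped. The second held protein-coding introns without that step. An intron could also enter the first set only if it fitted inside 1 exon of a member, which bounds its length. The part of these choices in the gap was not tested. Introns of 300 bases or fewer were 52.6% of the first set and 16.4% of the second. Their splice sites were ordinary: 97.6% began with GT and ended with AG, and 1.43% began with GC. The median GC content of these introns was 50.3%, against 53.2% for the 100 bases on each side.

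Whole introns are printed first for 4 members that recur below, and each printed intron lies between coding exons of a protein-coding transcript. All sequences are from GENCODE M21 transcripts on the mm10 build (GRCm38), 5' to 3' on the strand of the gene, with the splice-site bases GT and AG in capitals. Mlxipl-205 keeps chr5:135121826-135122069 (plus strand, 244 bases) of the gene for the glucose-responsive transcription factor ChREBP. Rpl41-207 keeps chr10:128548681-128548948 (minus strand, 268 bases) of a gene for a protein of the large ribosomal subunit. Tmed9-204, of a gene for a cargo receptor of the early secretory pathway, is a single exon that runs across 2 introns. Of these, chr13:55593358-55593500 (plus strand, 143 bases) is printed, and the other is 1103 bases long. Hhex-203, of the gene for a transcription factor of delta cells, is also a single exon across 2 introns, of which chr19:37437368-37437566 (plus strand, 199 bases) is printed.
Mlxipl-205: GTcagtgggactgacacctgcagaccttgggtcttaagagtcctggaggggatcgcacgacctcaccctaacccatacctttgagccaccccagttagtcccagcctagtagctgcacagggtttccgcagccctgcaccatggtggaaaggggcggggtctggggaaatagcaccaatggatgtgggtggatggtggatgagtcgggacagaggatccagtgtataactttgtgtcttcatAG
Rpl41-207: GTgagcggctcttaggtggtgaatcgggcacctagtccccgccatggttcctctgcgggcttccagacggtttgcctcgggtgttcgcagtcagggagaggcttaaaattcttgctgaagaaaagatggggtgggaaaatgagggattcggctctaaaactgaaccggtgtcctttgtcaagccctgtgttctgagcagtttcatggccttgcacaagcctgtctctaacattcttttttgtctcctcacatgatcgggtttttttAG
Tmed9-204: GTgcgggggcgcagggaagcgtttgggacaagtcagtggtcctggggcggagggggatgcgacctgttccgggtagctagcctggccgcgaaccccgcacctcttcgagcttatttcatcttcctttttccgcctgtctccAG
Hhex-203: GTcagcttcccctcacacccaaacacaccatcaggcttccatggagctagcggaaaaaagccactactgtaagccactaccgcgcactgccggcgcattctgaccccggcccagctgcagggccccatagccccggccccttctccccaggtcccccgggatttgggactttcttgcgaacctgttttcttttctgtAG

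The other sequences show both splice sites of introns over 300 bases, or of introns that no protein-coding transcript removes, as 10 exon bases and 20 intron bases at each site with GT or AG in capitals. Rbm39-205, the member with most UMIs, keeps chr2:156178953-156179176 (minus strand, 224 bases), an intron with those ends that no protein-coding transcript of the gene removes. Srsf7-207 keeps a whole 874-base intron of protein-coding transcripts, which other transcript types remove as 2 shorter introns, of which chr17:80204388-80204621 (minus strand, 234 bases) is shown. Fosb-204 is a single exon that runs across 2 introns, of which chr7:19306667-19307119 (minus strand, 453 bases) is shown. Dusp1-203 keeps chr17:26507205-26507573 (minus strand, 369 bases). Pfn1-203 is a single exon that keeps chr11:70652980-70654348 (minus strand, 1369 bases).
Rbm39-205 5' splice site: ttacaagaagGTgagaaaacacgctagtga
Rbm39-205 3' splice site: ccatctatctctctttgtAGacttgcctaa
Srsf7-207 5' splice site: aacttgcaagGTttattttaaatacacatt
Srsf7-207 3' splice site: ttttctaacttaaaaaatAGgtcacgatct
Fosb-204 5' splice site: agaagagacaGTaagtatgaggcctcagga
Fosb-204 3' splice site: ggtccttatctctgactcAGcttaccccag
Dusp1-203 5' splice site: ctacgatcagGTtagtaggagtccgggtcc
Dusp1-203 3' splice site: gactgtttttttgacttcAGgggggcccag
Pfn1-203 5' splice site: tagcattacgGTactgcgaggctcgtgcgg
Pfn1-203 3' splice site: gaggtgattaattcttttAGccagctgagg

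Across all kept cells, retained-intron transcripts held 263694 UMIs in replicate 1, or 2.78% of the UMIs (95% exact binomial interval 2.76 to 2.79), and 264178 UMIs or 2.45% in replicate 2 (2.44 to 2.46). These intervals cover counting error only. Protein-coding transcripts held 87.9% and 88.6%, and transcripts annotated for nonsense-mediated decay 0.391% and 0.389%. The class was thus the third largest of the transcript types listed, after lincRNA with 6.90% and 6.75%.

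By cell type the share was low everywhere, and the order of the types changed between the libraries. Beta cells had 2.61% in replicate 1 and 2.78% in replicate 2 (mean 2.70% ± 0.122, SD, n = 2). Alpha cells had 2.78% and 2.10% (2.44% ± 0.478), and delta cells 3.45% and 2.50% (2.97% ± 0.670). Another type's hormone was the most abundant in 43.7% and 38.4% of the delta cells. Delta cells led by their own hormone had 3.20% and 2.71%. Without the authors' clusters 7, 14 and 16, delta cells had 2.98% and 2.40%. PP cells, which make pancreatic polypeptide, had 1.99% and 1.75% (1.87% ± 0.171) and were the lowest of the 4 endocrine types in each library.

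Outside the endocrine types, only endothelial cells had a wider spread between libraries than every endocrine type. Endothelial cells had 3.85% in replicate 1 and 1.71% in replicate 2 (2.78% ± 1.52), so that they were the highest type in one library and among the lowest in the other. The authors' cluster 11, without the cells with duct markers, had 4.08% and 1.93%. Stellate cells, the fibroblast-like support cells of the islet, had 2.73% and 2.11% (2.42% ± 0.432). Macrophages had 2.22% of 101446 UMIs in 62 cells and 1.36% of 60142 UMIs in 7 cells (1.79% ± 0.606). PP values lay below all beta, alpha and delta values, and for every other pair of these 4 types the values overlapped between the libraries. No test of this share was made, and an exact permutation test over 2 libraries could not reach 0.05.

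Hormone messages set part of these shares, because they are abundant and carry almost no retained-intron UMIs. Without the hormone genes the shares were 3.08% and 3.21% in beta cells, 4.44% and 2.74% in alpha cells, 4.53% and 3.19% in delta cells, and 3.11% and 2.46% in PP cells. PP cells then no longer had the lowest share in replicate 1, where beta cells did by a small margin. With only members that hold a whole intron, the shares were 1.01% and 1.09% in beta cells, 1.06% and 0.878% in alpha cells, 1.34% and 1.01% in delta cells, and 0.767% and 0.777% in PP cells.

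To set gene composition aside, the retained-intron UMIs of each type were divided by the number expected if each gene had the retained-intron share that it had in all other cells of the library (genes with at least 50 UMIs in those other cells). PP cells were below 1 in both libraries, at 0.890 and 0.858, as were stellate cells at 0.854 and 0.814 and macrophages at 0.927 and 0.675 (62 and 7 cells). Alpha cells were above 1 in both, at 1.25 and 1.04. Beta cells changed side, at 0.810 and 1.04. Endothelial cells were level with the other cells in replicate 1, at 1.00, and below them in replicate 2, at 0.634. Delta cells were at 1.14 in replicate 1 and level in replicate 2, at 1.00. Within the delta class, cluster 7 was at 1.49 and 1.51 and cluster 3 at 1.04 and 1.01. Cluster 8 was at 0.997 in both libraries and cluster 12 at 1.19 and 0.997, while clusters 14 and 16 were below 1 in both.

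**Figure D1:**
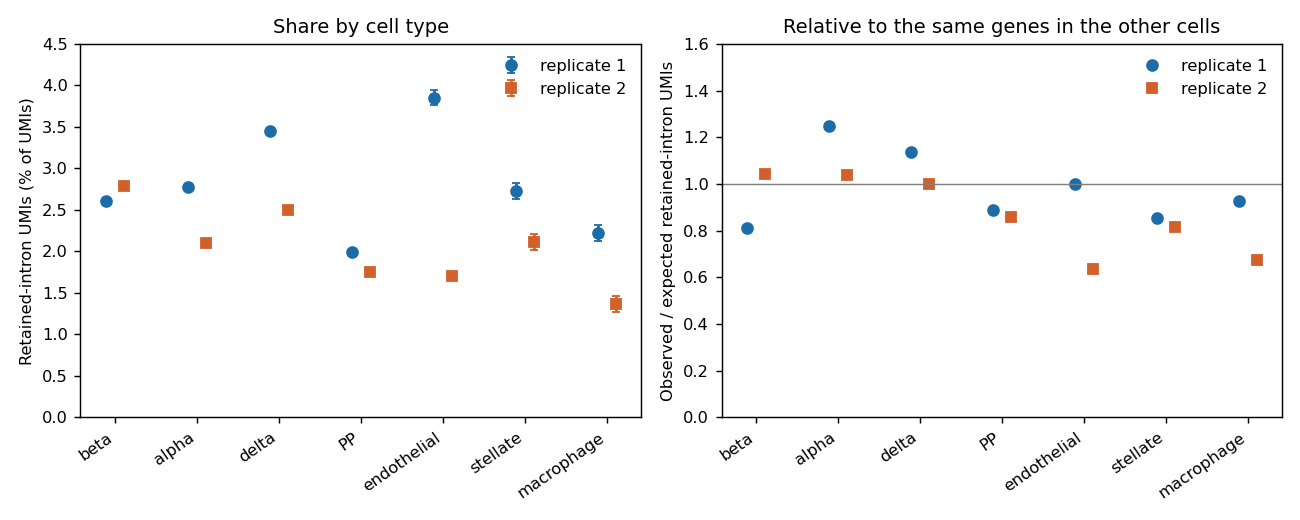
The left panel plots the percentage of UMIs on retained-intron transcripts by cell type, with a circle for replicate 1, a square for replicate 2 and bars for the 95% exact binomial interval; the right panel plots observed over expected retained-intron UMIs from the other cells' shares of the same genes, with a line at 1. PP cells sit at 1.99% and 1.75% and at ratios of 0.890 and 0.858, while endothelial cells differ most between the libraries.

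Per cell, the median share was 2.51% in replicate 1 and 2.52% in replicate 2 for beta cells, 2.60% and 1.95% for alpha cells, 3.09% and 2.19% for delta cells, and 1.83% and 1.58% for PP cells. No cell lacked a retained-intron UMI. After each cell was thinned to 1000 UMIs (152 beta, 107 alpha, 241 delta and 3 PP cells of replicate 1 were too shallow and 0 cells of replicate 2), there were medians of 2.50% and 2.50% for beta cells, 2.50% and 2.00% for alpha cells, 2.90% and 2.20% for delta cells, and 1.90% and 1.60% for PP cells. PP cells had the lowest of these 4 medians in both libraries, with and without thinning.

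The share moved with Malat1, a long noncoding RNA that stays in the nucleus and is not a member. Across cells, Spearman's rho between the retained-intron share and the Malat1 share was 0.49 over 4814 cells of replicate 1 and 0.62 over 1093 cells of replicate 2. Within the endocrine types it was 0.51 and 0.73 in beta cells, 0.53 and 0.66 in alpha cells, 0.57 and 0.61 in delta cells, and 0.28 and 0.50 in PP cells. Both measures of a cell come from the same library and total, so these are descriptions. Over all cells the rho with the mitochondrial share was 0.19 and 0.52, and that with the UMI total was -0.28 and -0.0033. The rho with the UMI total differed between types in replicate 1, with -0.40 in alpha and -0.38 in delta cells against -0.095 in beta and 0.0049 in PP cells. The part of nuclear RNA, cell damage or depth in the retained-intron share was not tested.

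Among the authors' 17 clusters, cluster 7, which their table names delta, stood apart in both libraries. It had 7.25% retained-intron UMIs in 295 cells of replicate 1 (median 681 UMIs) and 6.33% in 27 cells of replicate 2 (median 4830 UMIs). The next highest clusters had 4.08% and 4.24%. Malat1 was also highest there, at 20380 and 17140 CPM. In cluster 7, beta marker genes stood at 46043 CPM and delta marker genes at 28013 CPM in replicate 1, and at 24482 and 78131 CPM in replicate 2.

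The rise in cluster 7 was spread over many genes. Its 10 leading genes held 5.16% of its retained-intron UMIs in replicate 1 and 5.51% in replicate 2. Of the 262 genes with 50 or more UMIs both in cluster 7 and in the other cells of replicate 1, 197 (75.2%) had a higher retained-intron share in cluster 7, with medians of 3.51% and 0.886%. In replicate 2 this held for 62 of 108 genes (57.4%), with medians of 0.995% and 0.292%. Relative to the other cells' shares of the same genes, cluster 7 was at 1.49 and 1.51. Beta cluster 4, the next in replicate 2, was at 1.02 in replicate 1 and 1.31 in replicate 2.

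**Figure D2:**
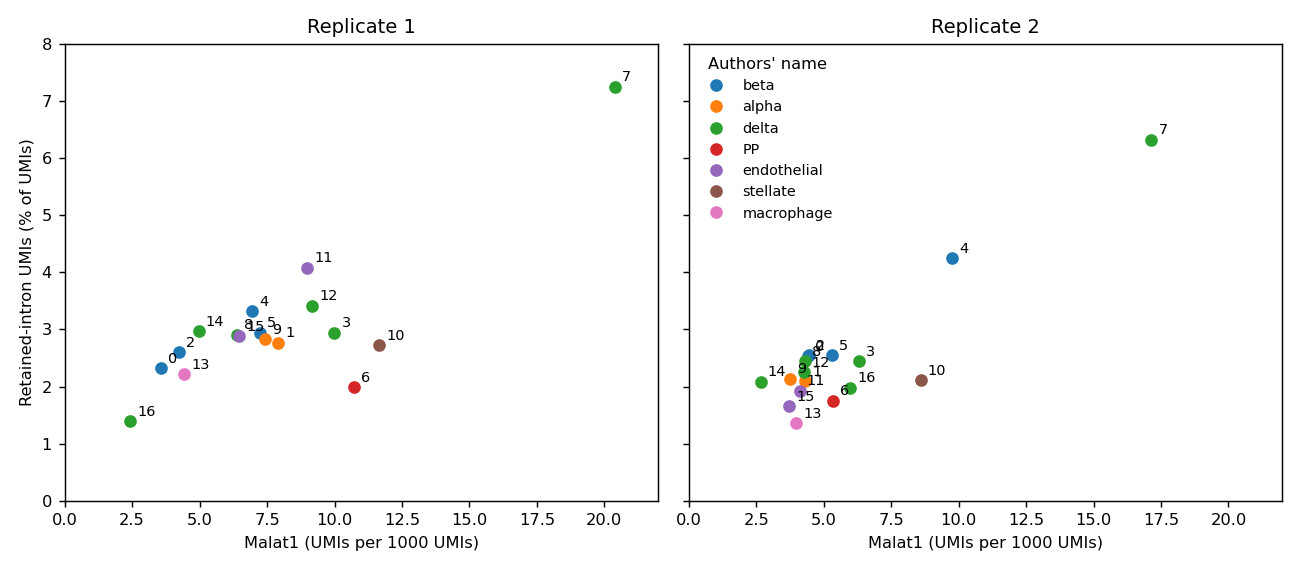
Each point is 1 of the authors' clusters, numbered and coloured by the name the authors gave it, with Malat1 UMIs per 1000 UMIs on the horizontal axis and the percentage of retained-intron UMIs on the vertical axis, for replicate 1 (left) and replicate 2 (right). Cluster 7 lies alone at the upper right in both panels, at 7.25% and 6.33%.

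Retained-intron UMIs were spread over many genes. The 20 leading genes held 8.33% of them in replicate 1 and 9.07% in replicate 2, the 100 leading genes 20.5% and 21.1%, and 50% of the UMIs took 583 genes in replicate 1 and 561 in replicate 2. Most members were rare: 7886 of the 13118 detected in replicate 1 had fewer than 10 UMIs, as had 8103 of 13248 in replicate 2.

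Per gene, the share was usually small, with a long upper tail. Among genes with a retained-intron transcript and at least 50 UMIs, the median share was 7.32% over 5428 genes of replicate 1 and 6.83% over 5437 genes of replicate 2. No retained-intron UMI was seen for 373 of them in each library. At least 50% of the UMIs were of this class in 617 genes (11.4%) and 595 genes (10.9%), and at least 90% in 91 and 94 genes. For 5227 genes with 50 UMIs in each library, the shares gave Pearson's r 0.97 and Spearman's rho 0.95 between libraries, across genes, which are not independent replicates. The median gap between the libraries was 1.62 percentage points, and 503 genes were at 50% or more in both.

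Of the 20 genes with most retained-intron UMIs, 14 had at least 50% of their own UMIs on such transcripts in both libraries. The most abundant member held a whole intron in 9 of the 20 and none in 11. In 18 of the 20 the 5' end of that member lay within 100 bases of that of another transcript type of the gene, and in 4 the 3' end did.

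Rbm39, which encodes an RNA-binding cofactor of splicing, was the leading gene. It had 4045 retained-intron UMIs of 4481 in replicate 1 (90.3%) and 3602 of 4265 in replicate 2 (84.5%), or 1.53% and 1.36% of all UMIs of the class. Over the 6 types tested below its share ran from 88.0% in beta cells to 94.8% in PP cells in replicate 1, and from 64.6% in endothelial cells to 88.4% in PP cells in replicate 2. The larger part came from Rbm39-205 (chr2:156178559-156180212), the 2-exon model whose kept intron is shown above, with 3088 and 2694 UMIs.

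Fosb and Fam221b came next. Fosb, an immediate early gene for a subunit of the AP-1 transcription factor, had 2644 of 2705 UMIs (97.7%) on Fosb-204 (chr7:19306416-19310044) in replicate 1 and 1936 of 2437 (79.4%) in replicate 2. In replicate 1 the Fosb share was between 95.4% and 100% in the 6 types tested below. In replicate 2 it was 94.7% in beta cells and 87.4% in delta cells, but 56.4% in alpha cells, 38.2% in PP cells, 36.4% in stellate cells and 31.7% in endothelial cells. The other Fosb transcripts were at 12.9 CPM in alpha cells of replicate 1 and 74.0 in replicate 2, while Fosb-204 was at 447 and 95.7. Fam221b had 1533 of 1534 UMIs and 3430 of 3432 (both 99.9%) on a 3-exon model with no whole intron inside.

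Several further leading genes belong to RNA processing. Tra2a, an SR-like splicing activator, had 79.4% in replicate 1 and 76.2% in replicate 2, nearly all on the single-exon model Tra2a-203, which starts at the gene's common 5' end. Nktr, a cyclophilin-related protein with an SR-rich tail, had 78.8% and 81.1%. Srsf7, an SR protein, had 47.5% and 41.2%, mostly on Srsf7-207 with its pair of short AT-rich introns (24.4% and 25.0% GC). Snrnp70, a protein of the U1 small nuclear ribonucleoprotein, had 48.3% and 44.1%, Ddx50, a nucleolar helicase, 58.9% and 64.4%, and Tia1, an RNA-binding protein of stress granules, 92.1% and 94.3%. Pcif1, the cap-adjacent adenosine methyltransferase, had 72.2% and 79.2%.

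The other leading genes were of varied function. Mlxipl had 1074 of 1497 UMIs (71.7%) and 1134 of 1512 (75.0%), all on Mlxipl-205, whose intron is printed above. Mlxipl was mostly seen in beta cells (70.5% and 75.2%) and delta cells (75.2% and 75.3%), which did not differ beyond the gap between libraries. Chka, choline kinase, had 81.4% and 83.5%, and Zdhhc21, a palmitoyltransferase, 84.8% and 87.2%. Tmed7, a cargo receptor of the early secretory pathway, had 95.9% and 97.8%, but its relative Tmed10 had 9.14% and 11.2%. Nav2 had 91.9% and 93.2%, Tmcc1 88.1% and 86.3%, Trim35 54.4% and 44.6%, and Cuta 44.3% and 35.3%. Rpl41 entered the leading 20 through its abundance, with only 7.77% of 8946 UMIs and 4.24% of 28064.

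**Figure D3:**
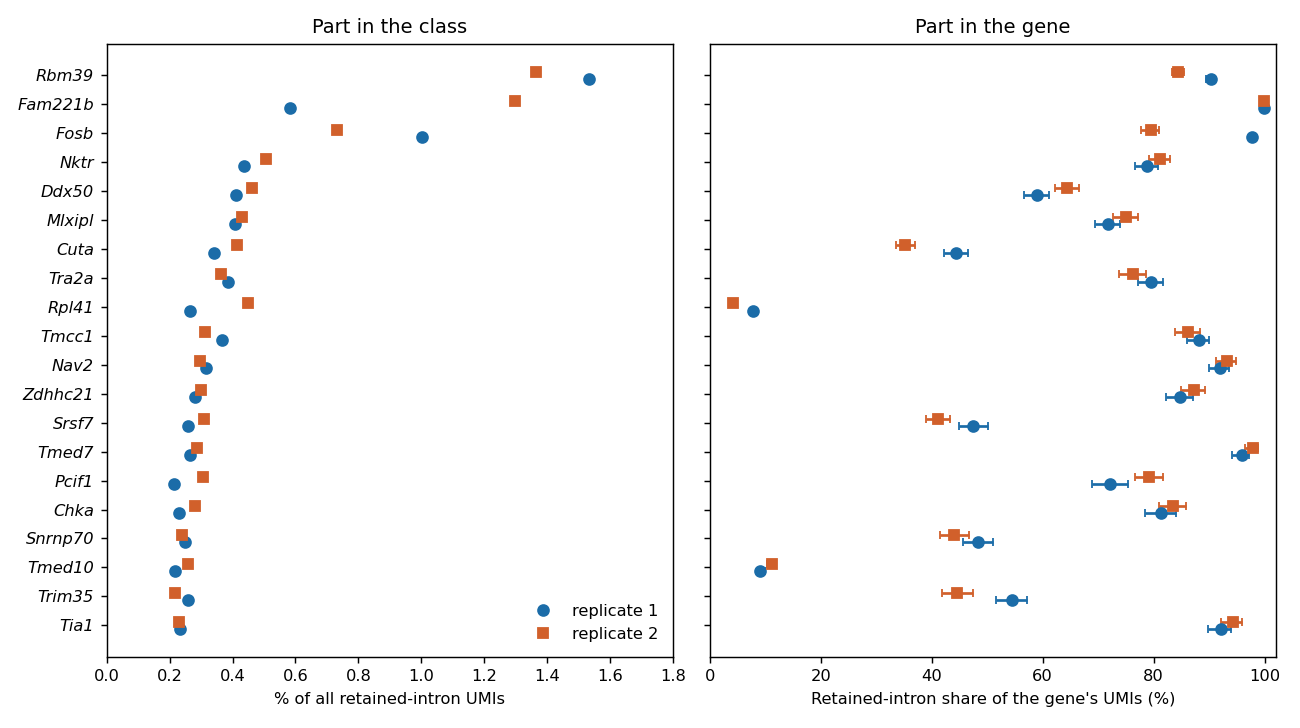
The 20 genes with most retained-intron UMIs, with their percentage of all UMIs of the class (left) and the retained-intron percentage of each gene's own UMIs with its 95% exact binomial interval (right); circles are replicate 1 and squares replicate 2. Rbm39 leads the left panel, and Rpl41 (7.77% and 4.24%) and Tmed10 lie far to the left of the others in the right panel.

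Some genes were seen almost only as this class. Nfat5, an osmotic stress transcription factor, had all of its 329 and 377 UMIs on retained-intron models, chiefly the 3-exon Nfat5-212. That model stops 32463 bases short of the nearest 3' end of another transcript type of the gene. Vmn2r115 with 290 and 302 UMIs, Vmn2r11 with 116 and 218, and Vmn2r120 with 73 and 61 were also at 100%. These 3 are vomeronasal receptor genes of a large family of near-identical copies, so their reads may be split or misplaced among copies and their values are uncertain. Cpa6 (98.5% and 100%), A2ml1 (99.3% and 99.0%), Rlim (100% and 99.2%), Crybg2 and Thsd7b (100% in both) were of the same kind. Of the 12 genes with the highest share, 8 had a most abundant member with no whole intron.

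Gene lists chosen for their relation to splicing or to islet function differed widely. Over all 5227 genes with 50 UMIs in each library, the median retained-intron share was 7.09% in replicate 1 and 6.67% in replicate 2. The 41 splicing regulators had medians of 19.96% and 18.1%, with 10 and 9 genes at 50% or more, and held 4.43% and 4.17% of all retained-intron UMIs. The 5 detained-intron enzymes had medians of 53.4% and 48.5%, with 4 and 2 genes at 50% or more. The values of these lists were in part known when the lists were drawn up, and no test was made of them.

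The detained-intron enzymes differed among themselves. Clk1, a kinase of SR proteins, had 68.7% of 530 UMIs in replicate 1 and 53.6% of 687 in replicate 2, and its relative Clk4 had 53.4% of 294 and 58.2% of 435. Both were seen on models with and without whole introns. Clk1-204, which holds 3, had 150 and 227 UMIs, and Clk1-202, which holds 0, had 114 and 100. Clk4-213, which holds 4, had 66 and 120 UMIs, and Clk4-206, which holds 0, had 52 and 88. Ogt, the transferase that adds O-linked N-acetylglucosamine to nuclear proteins, had 57.8% and 44.0%. Mat2a, which makes S-adenosylmethionine, had 52.2% and 48.5%, but 67.0% of the bases of its main member Mat2a-207 lie over the opposite-strand gene Particl, so its reads cannot be assigned with certainty. Mgea5, which removes the sugar that Ogt adds and is named to complete the list, had 18.5% and 15.8%.

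Genes of protein synthesis had little of the class. The 62 cytosolic ribosomal protein genes had medians of 0.560% and 0.344%, the 20 translation factors 0.882% and 0.931%, the 14 genes of folding in the endoplasmic reticulum (ER) 0.834% and 1.21%, and the 16 nuclear genes of the respiratory chain 1.10% and 0.472%. The 6 prohormone and granule genes were lowest, with 0.152% and 0.206%. Pyy, which encodes peptide YY, had 41 retained-intron UMIs of 181992 and 30 of 290387, and Chga, a granule core protein, had 0.267% and 0.172%. Within the lists there were exceptions: Sel1l, an adaptor of ER-associated degradation, had 93.4% of 122 UMIs and 97.8% of 92, and Ndufs1, a subunit of complex I, had 31.4% and 24.8%.

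Islet transcription factors and the exocytosis machinery lay above the median of all genes. The 13 transcription factors had medians of 16.8% and 9.07%. Isl1, shared by all endocrine types, had 11.3% and 7.80%, Pax6 16.8% and 14.3%, and Etv1 29.8% and 41.3%. Hhex had 26.4% of 523 UMIs in delta cells of replicate 1 and 9.96% of 663 in replicate 2, on the single-exon Hhex-203. The 10 exocytosis genes had medians of 12.4% and 12.7%. Snap25, a SNARE of the plasma membrane, had 31.7% and 25.5%, and Nsf, the ATPase that takes SNARE complexes apart, 32.96% and 29.3%.

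The remaining lists were small. The 6 snoRNA host genes had medians of 14.8% and 9.86%, and the 3 immediate early genes 19.8% and 4.60%. None of the 8 nuclear lncRNAs on the list has an annotated retained-intron transcript that was found in the tables, so Malat1 contributed nothing to the class.

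**Figure D4:**
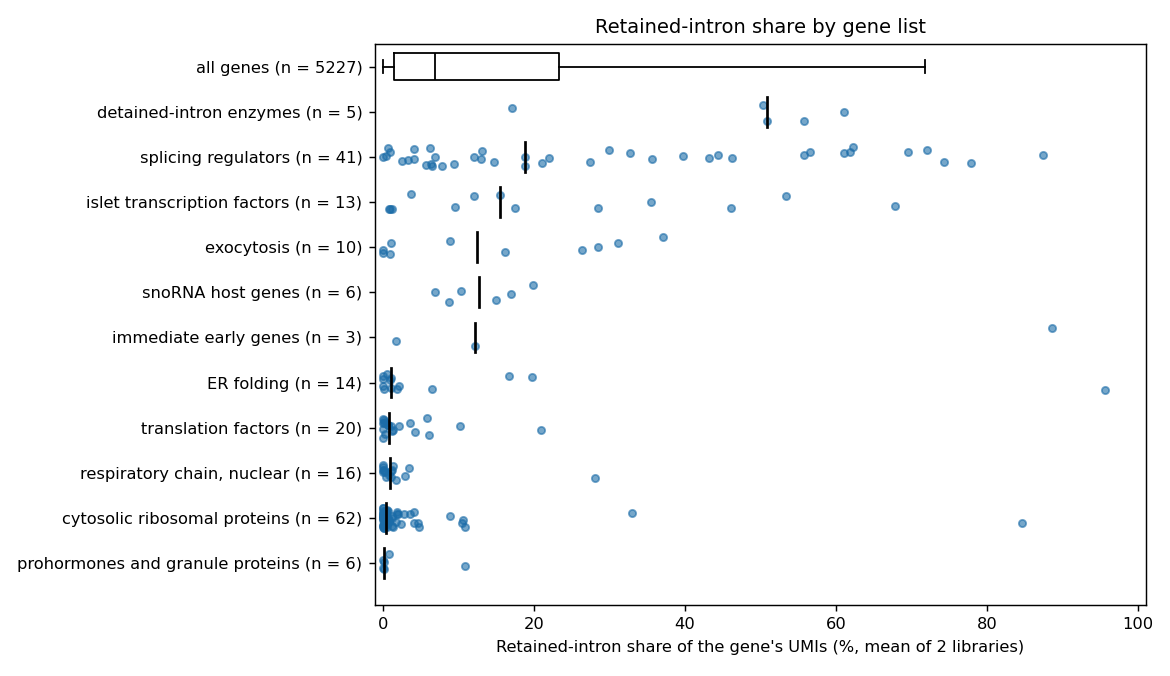
Each point is a gene with at least 50 UMIs in each library, placed at its retained-intron percentage (mean of the 2 libraries) in the row of its list, with a bar at the list's median; the top row is a box of all 5227 genes (quartiles, whiskers at the 5th and 95th percentiles). Splicing regulators spread across the axis, while cytosolic ribosomal protein and prohormone genes crowd near 0 apart from a few members.

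Whether the retained-intron share of single genes differed between cell types was tested with edgeR on UMIs summed per library and type, each gene's retained-intron sum against its other transcript types, with the library as a block and Benjamini-Hochberg adjustment over all features tested. The change in share is given in percentage points, and the log2 value is the change in usage relative to the rest of the gene. The alpha, delta and PP comparisons share the same beta cells. Counts at an unadjusted p under 0.05 are descriptions, since features pass that threshold at about that rate when nothing differs. Matching counts over all features are not given, so these counts do not show an excess of changed members.

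Between alpha and beta cells, 11 of 3156 retained-intron features tested were called, 8 higher in alpha cells and 3 lower. Over all 8791 features of every transcript type, 0.159% were called higher and 0.091% lower. At an unadjusted p under 0.05, 210 retained-intron features were higher and 49 lower, and the median change was 2.54 points. Without the 5% filter these values were 262, 58 and 1.49 points. Without the library as a replicate block 2 of the 11 calls were left, Srpr and Arpc5.

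Srpr, the alpha subunit of the receptor for the signal recognition particle, had the firmest difference. Its retained-intron share was 5.83% in alpha cells (12 of 206 UMIs) against 0.850% in beta cells (23 of 2707) in replicate 1, and 6.16% (33 of 536) against 0.393% (13 of 3311) in replicate 2. Both alpha values were above both beta values (log2 2.31, adjusted p = 2.9e-08, edgeR). In level, the retained-intron transcript Srpr-204 had a level of 7.04 CPM in alpha cells against 4.99 CPM in beta cells of replicate 1, and 15.6 against 3.46 CPM in replicate 2. The other Srpr transcripts were at 114 against 582, and 237 against 877, so they were lower in alpha cells.

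Arpc5, a subunit of the Arp2/3 complex that branches actin, had 16.8% in alpha cells and 2.05% in beta cells in replicate 1, and 10.1% and 1.77% in replicate 2 (log2 1.91, adjusted p = 5.2e-05, edgeR). Rsrp1, an arginine- and serine-rich nuclear protein, had 23.7% against 9.78% and 17.9% against 5.29% (log2 1.06, adjusted p = 5.6e-05). Rsrp1-204 itself had a level of 46.9 CPM in alpha cells against 44.5 CPM in beta cells of replicate 1, and 36.3 against 25.5 CPM in replicate 2, while the other Rsrp1 transcripts were at 151 against 410 and 166 against 457. For both genes the alpha values were above the beta values in each library without overlap.

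Tmed9, with 1 of the 2 introns of Tmed9-204 printed above, had 19.7% against 7.47% and 17.5% against 7.38% (adjusted p = 0.0045, edgeR). Slc35b1, a nucleotide exchanger of the ER membrane, had 32.99% against 4.21% in replicate 1 but 8.29% against 4.18% in replicate 2 (adjusted p = 0.00086). Rpl22l1, a ribosomal protein paralogue, had 13.99% against 3.13% and 3.83% against 2.01% (adjusted p = 0.0016). The size of the last pair of differences thus rested mainly on replicate 1. Med31 and Msmo1 also rose, with under 50 UMIs of the gene in alpha cells of replicate 1, and are named because they complete the 8.

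The 3 genes with a lower share in alpha cells were Dusp1, Lpl and Snhg8. Dusp1, an immediate early phosphatase of MAP kinases, had 16.2% in alpha cells against 42.9% in beta cells in replicate 1 and 2.04% against 26.5% in replicate 2 (log2 -1.78, adjusted p = 1.6e-06, edgeR). Lpl, lipoprotein lipase, had 4.96% against 11.2% and 1.94% against 17.1% (adjusted p = 8.4e-05). Snhg8, a snoRNA host gene, had 17.2% against 25.5% and 1.99% against 19.0% (adjusted p = 0.012), and was not called with voom or with sums thinned to equal totals.

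Delta cells differed from beta cells in 3 of 3391 retained-intron features, with 0.0423% of all 9463 features called higher and 0.0106% lower. At an unadjusted p under 0.05, 92 of the 3391 were higher and 32 lower. The median change was 1.16 points, and 0.387 points without clusters 7, 14 and 16. Without the 5% filter it was 0.646 points, with 126 higher and 42 lower at an unadjusted p under 0.05. All 3 calls rest on few UMIs. Glrx, the thiol-disulphide enzyme glutaredoxin, had 6 of 69 UMIs (8.70%) in delta cells and 0 of 479 in beta cells in replicate 1, and 4 of 87 (4.60%) against 0 of 246 in replicate 2 (adjusted p = 0.0019, edgeR). The beta counts of 0 allow, at 3 UMIs of the total, shares of up to 0.626% and 1.22%. Glrx thus entered the test through delta cells alone, at the minimum of 10 UMIs that a feature needed, so its p-value is a description. It could be tested in only 8 of 12 alternatives.

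Ppp1r14b, an inhibitor of protein phosphatase 1, had 12.1% against 2.31% and 22.3% against 2.72% (adjusted p = 0.014, edgeR), and was not called with voom or with thinned sums. Cd9, a tetraspanin, had 0.148% in delta against 4.05% in beta cells and 0.208% against 6.60% (adjusted p = 0.0019), with 3 and 7 retained-intron UMIs in beta cells. The Cd9 call was lost when clusters 7, 14 and 16 were left out and when only cells led by their own hormone were kept. Without the replicate block Glrx alone was called.

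PP cells differed from beta cells in 5 of 2847 retained-intron features, 3 higher and 2 lower, with 0.101% of all 7898 features called higher and 0.0506% lower. With no TMM scaling the calls split into 3 higher against 5 lower, and DESeq2 size factors gave 1 higher against 2 lower. At an unadjusted p under 0.05, 69 were higher and 141 lower, and the median change was -3.57 points. Without the 5% filter these values were 83, 184 and -1.92 points. Arpc5 was higher, at 11.7% against 2.05% and 8.22% against 1.77% (adjusted p = 0.048, edgeR), but this call was lost in 4 of 12 alternatives. Dusp1 was lower, at 14.7% against 42.9% and 0.433% against 26.5% (log2 -2.04, adjusted p = 2.0e-06). The other 3 calls, Unc13a and Tnr higher and Klhdc8b lower, had under 50 UMIs of the gene in PP cells and are named to complete the count. Without the replicate block edgeR left 0 PP calls, with 42 features higher and 120 lower at an unadjusted p under 0.05, and limma on voom values called 30 with the block.

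Endothelial and stellate cells together were compared with the 4 endocrine types. The fit set the mean of the endothelial and stellate terms against the mean of the 4 endocrine terms, with equal weight for each type. The percentages, the 5% filter and the changes in points pool UMIs over the types of a side. Types with more UMIs of a gene therefore weigh more in them than in the log2 values and p-values. Of 3695 retained-intron features, 4 were called higher and 9 lower, with 0.124% of all 10488 features called higher and 0.162% lower. At an unadjusted p under 0.05, 29 were higher and 135 lower, and the median change was -5.06 points. Without the 5% filter these values were 35, 152 and -2.64 points. This balance turned with limma on voom values, which called 251 higher and 173 lower, with 558 and 385 at an unadjusted p under 0.05. The median log2 change was -0.41 with edgeR and 0.14 with voom. Endothelial cells of replicate 2 include the cluster with duct markers described above, and without that cluster Bcam and Rbm25 were not called, and 84 features in place of 135 were lower at an unadjusted p under 0.05.

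Pfn1, the actin-monomer binding protein profilin, had 2.97% in the non-endocrine cells (10 of 337 UMIs) against 12.8% in the endocrine cells in replicate 1, and 1.09% (6 of 552) against 8.61% in replicate 2 (log2 -1.44, adjusted p = 5.4e-05, edgeR). Pfn1-203, whose splice sites are shown above, had 607 and 498 UMIs over all cells. Within the endocrine cells the Pfn1 share ran from 6.41% in PP to 14.5% in beta cells in replicate 1 and from 4.30% to 11.8% in replicate 2. By type, Pfn1 had 1.88% and 0.214% in endothelial cells but 4.84% and 5.88% in stellate cells, whose values overlapped those of PP cells. Emp2, an epithelial membrane protein, had 0 of 113 and 0 of 117 UMIs in the non-endocrine cells, which allow up to 2.66% and 2.56%, against 20.7% and 23.9% in the endocrine cells (adjusted p = 0.00028). Emp2 thus entered the test through the endocrine cells alone, so its p-value is a description. Bcam, a laminin receptor, had 0.685% against 5.61% and 0 of 190 UMIs against 6.65% (adjusted p = 0.030, edgeR).

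Rpl41 went the other way. Its retained-intron share was 26.9% in the non-endocrine cells against 7.34% in the endocrine cells in replicate 1, and 8.21% against 4.12% in replicate 2 (log2 0.95, adjusted p = 6.1e-07, edgeR). The Rpl41 values were above the endocrine value of the same library in both, but the non-endocrine share of replicate 2 was close to the endocrine share of replicate 1. By type, Rpl41 had 25.6% and 6.78% in endothelial cells and 29.1% and 14.3% in stellate cells.

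Dusp1 was lower in the non-endocrine cells as well, at 2.20% against 27.0% and 0.794% against 6.08% (adjusted p = 1.1e-05, edgeR). By type, the Dusp1 share was 42.9% and 26.5% in beta cells, 45.5% and 4.25% in delta cells, 16.2% and 2.04% in alpha cells, 14.7% and 0.433% in PP cells, 2.27% and 0.697% in endothelial cells, and 2.00% and 1.79% in stellate cells. It was lower in replicate 2 in each of these types. The other Dusp1 transcripts were higher in replicate 2, at 47.9 against 12.1 CPM in beta cells and 271 against 88.0 in alpha cells.

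The other 8 non-endocrine calls had under 50 UMIs of the gene on a side in some library and are named to complete the count. Bcr, Ccdc12 and Klhdc8b were higher, and Fkbp7, Rbm25, Ccnd3, Cd34 and Rasgrp2 were lower. Bcr had 23 of 33 UMIs (69.7%) against 7.40% in replicate 1 and 18 of 29 (62.1%) against 5.61% in replicate 2 (adjusted p = 1.2e-08, edgeR). Without the replicate block 5 of the 13 were left, Bcr, Klhdc8b, Pfn1, Emp2 and Rbm25.

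**Figure D5:**
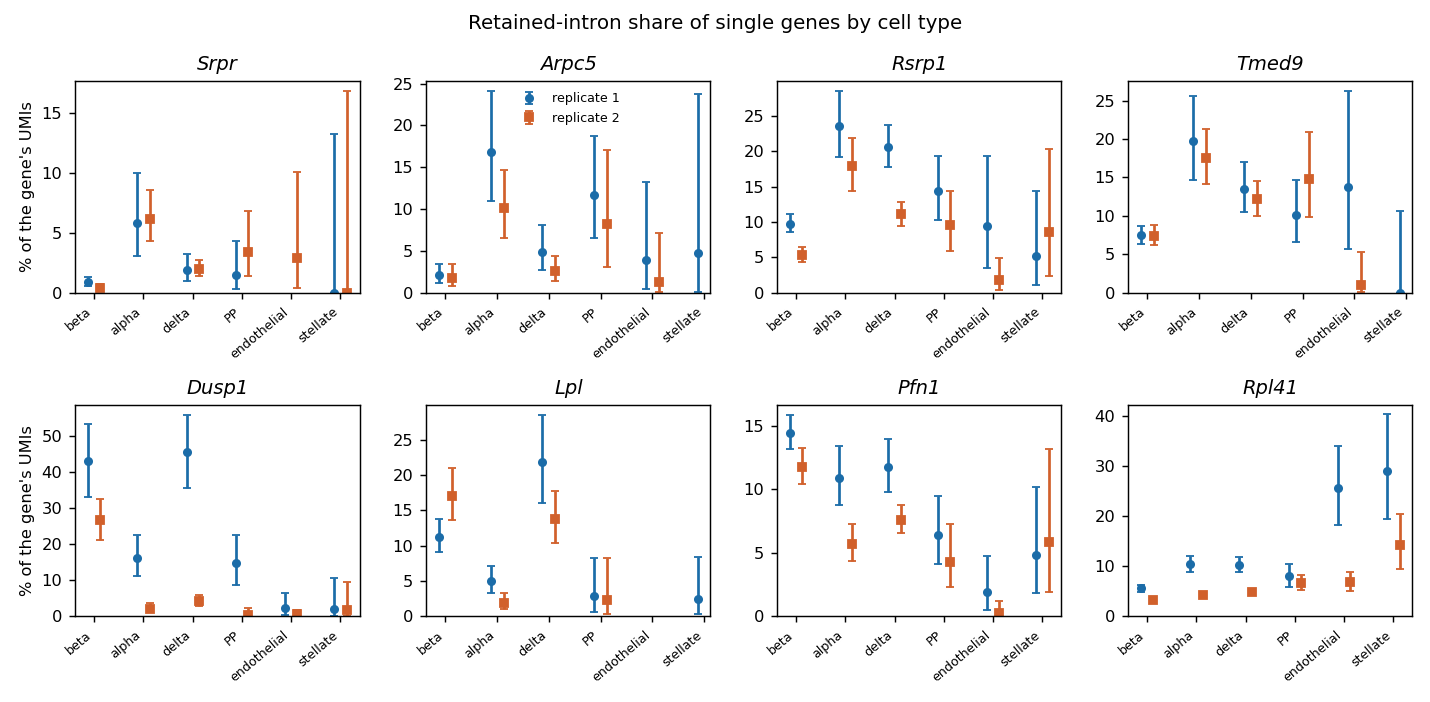
Retained-intron percentage of the UMIs of 8 genes by cell type, with circles for replicate 1, squares for replicate 2 and bars for the 95% exact binomial interval; a type with under 20 UMIs of the gene in a library is left out, and the vertical scales differ. Srpr, Arpc5, Rsrp1 and Tmed9 are higher in alpha than in beta cells in both libraries, Dusp1 and Lpl are lower, and with endothelial and stellate cells joined Rpl41 is above and Pfn1 below the endocrine cells of the same library, although the Pfn1 interval of stellate cells in replicate 2 overlaps those of the endocrine types.

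Across the 4 comparisons, 16 genes met the rule for being named. The most abundant member held a whole intron in 7 of them, Dusp1, Rsrp1, Rpl22l1, Tmed9, Snhg8, Pfn1 and Rpl41. In the other 9 it held none. The test used the sum of all members of a gene, and where the models without a whole intron start, stop or splice was not classified.

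The gene lists were read in the same comparisons. Among splicing regulators, 0 of 30 tested features were called between alpha and beta cells, 0 of 33 between delta and beta cells, 0 of 30 between PP and beta cells, and 1 of 32 (Rbm25, lower) between non-endocrine and endocrine cells, by edgeR. At an unadjusted p under 0.05, 3, 0, 2 and 5 of them passed, and limma on voom values called 0, 0, 0 and 4, the last beside 424 of all 3695 retained-intron features. Their median change was 4.07 points in alpha cells against 2.54 over all retained-intron features tested, 0.15 against 1.16 in delta cells (the latter moves with clusters 7, 14 and 16, as given above), -6.96 against -3.57 in PP cells, and -5.75 against -5.06 in the non-endocrine cells. In PP cells 21 of the 30 were lower than in beta cells in both libraries and 2 were higher in both, beside 1081 and 502 of all 2847 features. The 5 detained-intron enzymes gave 0 calls by edgeR in each comparison, with 1, 0, 0 and 1 at an unadjusted p under 0.05 and 0, 0, 0 and 1 by voom. The other called list members were Dusp1, 1 of 2 immediate early genes tested, in 3 comparisons, Snhg8, 1 of 7 snoRNA host genes, and Rpl22l1, 1 of 7 cytosolic ribosomal protein genes, in alpha cells, and Unc13a, 1 of 5 exocytosis genes, in PP cells.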

How the data were processed

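The authors deposited whole-number counts of UMIs per cell for genes and annotated transcripts and a table of cell identities. The labels name mm10 and Seurat, while the aligner, counter and strand setting are not given in the sources used here. Transcripts were joined to GENCODE M21 by identifier (99.9% of UMIs in each library). Kept cells were the 4814 and 1093 in the authors' table, and types were the authors' names from gene clusters. Because these clusters were built on the same cells' gene counts, the types are not independent of expression. Transcript UMIs in kept cells came to 9509266 in replicate 1 and 10807831 in replicate 2.

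UMIs were summed per library and type for 6 types, those reaching 20 cells in both libraries (12 sums). Each gene's UMIs were summed per transcript type, and usage was tested with edgeR 4.0.16 (TMM, glmQLFit, diffSpliceDGE; type and library as terms; Benjamini-Hochberg adjustment over all features; 0.05). A feature needed 10 UMIs over both sides together and 5% of the gene's UMIs on the side with the larger share. Features could thus enter through that side alone. Library entered as a block, since all types come from each library. On simulated data with 100 changed features of each size, for alpha against beta, 7% of 2-fold and 63% of 4-fold changes were recovered, and 0.0117% of 8526 unchanged features were called. The simulated counts used the same pooled profile for all types and a fixed dispersion. Changes were placed only in features with more UMIs than the 10 that the test required. The rates therefore need not hold for the real features.

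Genes named were the 20 with most retained-intron UMIs, the 12 with the highest share (50 UMIs in each library), called genes with 50 UMIs on each side in each library and the same direction in both (up to 10 each way), and up to 4 members of each of 12 lists by retained-intron UMIs. Predicted genes were left out of all but the lists. Members and lists were chosen with earlier results of these data known. Scrublet in scanpy 1.11.5 called 6 and 14 cells as doublets; 0.125% in replicate 1 is too few, so it was not relied on, and an alternative dropped the 6% of cells that scored highest. Other alternatives used limma 3.58.1, DESeq2 1.42.0, other filters and other sets of cells or members.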

Additional observations from a re-analysis of the deposited data

Results flagged for a closer look

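A retained-intron signal also appeared in barcodes that the tables hold but that the authors' cell table leaves out, and that no comparison above uses. In replicate 1, 1581 such barcodes (median 520 UMIs) had 64981 retained-intron UMIs of 1635331, or 3.97% (95% exact binomial interval 3.94 to 4.00, counting error only), against 2.78% in the kept cells. In replicate 2, 1031 such barcodes (median 2360 UMIs) had 248286 of 2901600, or 8.56% (8.52 to 8.59), against 2.45% in the kept cells. The share was higher outside the cell table in both libraries, and it was not tested.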

How the results depend on the processing

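With 2 libraries, alternatives were read as values. Mean shares by type moved by more than 1 SD as follows. Without hormone genes they were 3.15% in beta, 3.59% in alpha, 3.86% in delta and 2.78% in PP cells; as a mean over genes with equal weight, 5.23%, 6.69%, 5.86% and 4.79%. Without mitochondrial genes beta cells had 2.84%, and without the 20 leading genes beta had 2.48% and PP 1.69%. With only members that hold a whole intron, shares were 1.05% in beta, 0.969% in alpha, 1.17% in delta, 0.772% in PP, 1.09% in endothelial and 0.979% in stellate cells; with only members over no exon of another gene, 2.17% in beta, 1.49% in PP and 1.95% in stellate cells. The last pair of settings, and those that leave out clusters or Malat1, Neat1 and Meg3, were chosen after seeing the data. Leaving out a library gave 2.61% to 2.78% in beta, 2.10% to 2.78% in alpha, 2.50% to 3.45% in delta, 1.75% to 1.99% in PP, 1.71% to 3.85% in endothelial and 2.11% to 2.73% in stellate cells. The median share per gene was 8.57% at 20 UMIs and 5.49% at 100 UMIs, with 13.6% and 8.48% of genes at 50% or more.

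Counts of called genes were 11 (alpha), 3 (delta), 5 (PP) and 13 (non-endocrine). With single transcripts as the unit, 20, 9 and 8 transcripts, not genes, were called in the first 3 comparisons. The counts of genes became 19, 7, 30 and 424 with voom. Without the 5% filter they were 17, 7 and 9 in the first 3 comparisons. With 30 UMIs there were 18 for alpha and 1 for delta; with transcript clusters 21 and 5; without cluster 15 (duct markers) 17 for alpha and 9 for PP. PP had 8 without TMM, 3 with DESeq2 size factors and 1 with thinned sums; delta had 5 with own-hormone cells. DESeq2 on the level of the sums, a different question, gave 127, 29, 67 and 224. Without the replicate block there were 2, 1, 0 and 5. The library is shared by all types, so the pairing comes from the design. No call changed direction in the usage alternatives that summed UMIs per gene and transcript type. Single transcripts were not matched to these calls. The causes of the changes in the counts were not tested. A test of calls with 1 library left was not run, since no residual degrees of freedom remain. In the simulation described above, 7% of 2-fold changes for alpha against beta were recovered. Depth, dispersion and library number were not varied.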
